A study of Sus scrofa with 12 samples.

Results

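The 4 genes described here encode chemokines that interferon induces, CXCL9, CXCL10, CXCL11 and CCL8. They were taken by name from a table of 7480 pig genes, and all 4 were found in it. The table covers 12 libraries of peripheral blood mononuclear cells (PBMC) in 3 groups of 4, all from Duroc x Landrace x Yorkshire crosses that the series' design text gives as 4 weeks old, with collection at 12 h. The control group was untreated, the Salmonella group received the bacterium (called Salmonella Typhi in the design text), and the sponge plus Salmonella group received it together with a sponge, a synthetic oligonucleotide meant to bind the microRNA miR-124. Titles of the last group name miR-124 without the word sponge, and none of the groups received a sponge or another oligonucleotide alone. The labels do not tie libraries to animals, so p-values measure the spread between these libraries, which may be technical.

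Chemokines are small secreted proteins that draw leukocytes along a gradient. CXCL9, CXCL10 and CXCL11 share the receptor CXCR3, carried mainly by activated T cells and natural killer (NK) cells. Their genes are switched on in monocytes and other cells by interferons through the STAT and IRF transcription factors, CXCL9 mostly by interferon gamma and CXCL10 also by type I interferons and NF-kB. CCL8, a monocyte chemoattractant, belongs to the CC family, whose receptors include CCR1 and CCR2. In RefSeq's Sscrofa11.1 annotation, the build that the submitters' processing notes name, CXCL9 (71665541 to 71670236), CXCL10 (71693641 to 71695948) and CXCL11 (71713790 to 71725669) lie side by side on chromosome 8. CCL8 lies on chromosome 12 (40740468 to 40741970).

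The deposited values are on a log scale, taken as log2, and the read depth behind them is unknown. Library medians ran from 5.11 to 5.31. Ties between genes were common only in the sponge plus Salmonella libraries, where 65.1% to 71.4% of genes shared their exact value with another gene, while in each of the other 8 libraries at most 0.0802% did. The sponge and whatever made these ties cannot be told apart. For the 4 chemokines, 13 of 16 values in the sponge plus Salmonella libraries were tied in this way, and 0 of 32 in the others. Olfactory receptor and keratin-associated genes should be silent in blood. Over 163 such genes the mean, called the background here, was 4.62, and the 95th percentile was 5.24. Markers of T cells, B cells and monocytes lay above the background, with the exception of 1 of 7 T cell markers in the control and Salmonella means. The platelet gene PPBP (11.09 to 13.26) and the erythroid gene AHSP (8.54 to 12.80) were well above it too, so RNA of platelets and red cells was also present.

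With Salmonella all 4 chemokine genes were higher than in control libraries, CXCL10 by far the most. Across all genes 33.6% were called between these groups (adjusted p below 0.05), 15.7% higher and 17.9% lower, and 35.6% had groups that did not overlap. After median centring of the libraries 965 genes were called higher and 1778 lower, against 1175 and 1338 without it. None of the 4 chemokine groups overlapped in this comparison.

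CXCL10 stood at 5.87, 5.07, 3.85 and 5.48 log2 units in control replicates 1 to 4 and at 12.26, 12.20, 11.08 and 13.69 in Salmonella replicates 1 to 4. The lowest Salmonella library lay over 5 log2 units above the highest control library. The mean rose from 5.07 ± 0.88 to 12.31 ± 1.07 (SD, n = 4), a log2 fold change of 7.24 ± 0.95 SE, or 151-fold, with an adjusted p of 5.7e-05. Only 2 of the 7480 genes had a larger difference between these groups. Control replicate 3 lay below the background, and with values under the background raised to it the rise was 7.05.

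CXCL9 stood at 4.26, 4.04, 4.11 and 4.31 in control replicates 1 to 4, below the background in each. In Salmonella replicates 1 to 4 it stood at 5.73, 5.98, 5.55 and 7.45, the last apart from the other 3. The mean rose from 4.18 ± 0.12 to 6.18 ± 0.86 (SD, n = 4), a log2 fold change of 2.0 ± 0.39 SE with an adjusted p of 0.0012. Because the control values lay below the background, the size is uncertain, and with them raised to it the rise was 1.56 (adjusted p = 0.020).

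CXCL11 had the smallest rise of the 4 genes. It stood at 4.48, 4.54, 4.69 and 4.41 in control replicates 1 to 4 and at 5.64, 5.50, 5.18 and 5.69 in Salmonella replicates 1 to 4. Control replicate 3 was the single control library above the background. The mean rose from 4.53 ± 0.12 to 5.50 ± 0.23 (SD, n = 4), a log2 fold change of 0.97 ± 0.20 SE with an adjusted p of 0.0019. All of this change took place within a log2 unit or so of the background, where fold changes are compressed.

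CCL8 was above the background in every control library, at 5.92, 6.05, 5.05 and 5.96 in replicates 1 to 4. Salmonella replicates 1 to 4 stood at 7.42, 6.88, 6.93 and 8.79. The mean rose from 5.74 ± 0.47 to 7.51 ± 0.89 (SD, n = 4), a log2 fold change of 1.76 ± 0.38 SE, or 3.39-fold, with an adjusted p of 0.0026. As with CXCL9, CXCL10 and CXCL11, Salmonella replicate 4 was the highest library.

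**Figure D1:**
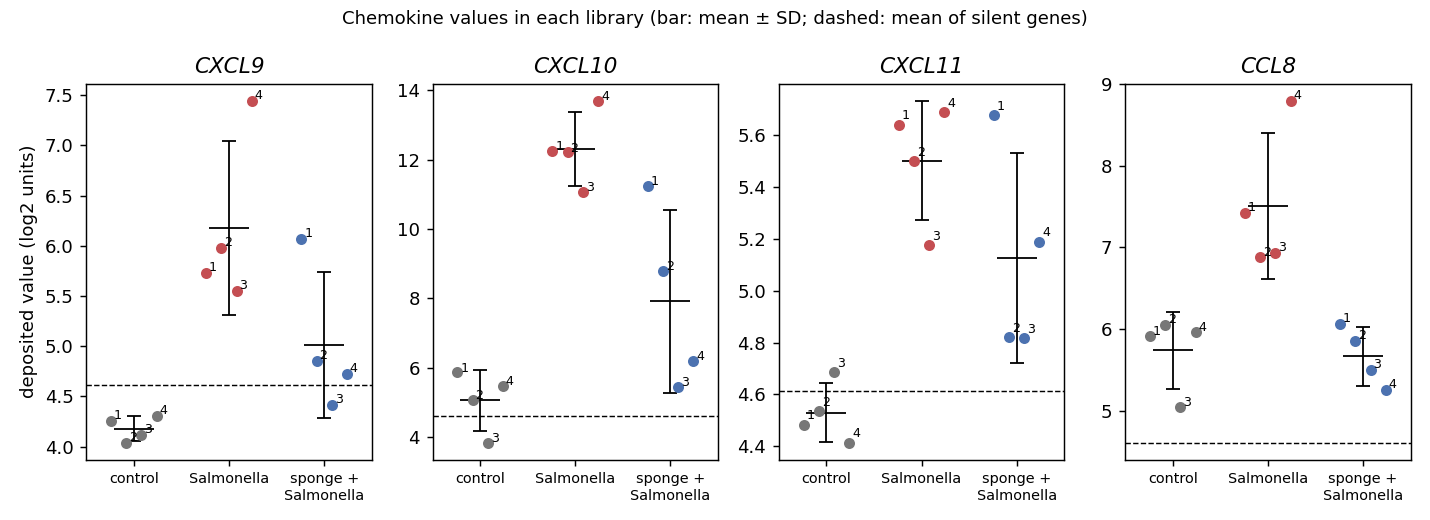
Deposited values in log2 units of CXCL9, CXCL10, CXCL11 and CCL8 in each of the 12 libraries, 1 panel per gene with its own scale. Points are libraries marked with their replicate number, black bars are group means ± SD (n = 4), and the dashed line is the mean of the silent genes at 4.62. Salmonella libraries lie above control libraries in each panel, and the sponge plus Salmonella libraries of CXCL10 spread from 5.45 to 11.24.

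With the sponge added, CXCL10 and CCL8 were lower than with Salmonella alone, CXCL9 was lower by a call that rested on the settings, and CXCL11 was not called. In this comparison 25.0% of all genes were called, 11.9% higher and 13.2% lower, and 23.8% had groups without overlap. It shares the Salmonella libraries with the comparison above, so a library that is high in that group moves both.

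CCL8 fell the most evenly. It stood at 6.07, 5.86, 5.50 and 5.26 in sponge plus Salmonella replicates 1 to 4, each below the lowest Salmonella library at 6.88. The log2 fold change against Salmonella was -1.83 ± 0.38 SE, with an adjusted p of 0.0038 and a 95% interval from -2.65 to -1.02. This was the only chemokine of the 4 whose sponge plus Salmonella and Salmonella groups did not overlap.

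CXCL10 stood at 11.24, 8.80, 5.45 and 6.21 in sponge plus Salmonella replicates 1 to 4. Replicate 1 reached the range of the Salmonella libraries, replicate 3 lay within that of the control libraries, and the other pair fell between them. Measured on the log2 scale from the control mean to the Salmonella mean, the 4 libraries stood at 85.2%, 51.6%, 5.28% and 15.7% of the rise. The mean of 7.92 ± 2.63 (SD, n = 4) was lower than with Salmonella by a log2 fold change of -4.39 ± 0.95 SE (adjusted p = 0.0049), the second largest difference of the 7480 genes in this comparison. The limma test shares 1 estimate of the spread between the groups, and the spread in this group was wider. An exact two-sided permutation test of the same values, added after seeing the data, gave p = 0.057.

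CXCL9 stood at 6.07, 4.85, 4.42 and 4.72 in sponge plus Salmonella replicates 1 to 4, and replicate 1 lay within the Salmonella range. The log2 fold change against Salmonella was -1.16 ± 0.39 SE (adjusted p = 0.040, 95% interval from -1.99 to -0.34). The call ended without control replicates 2 or 4, Salmonella replicates 2 or 4, or sponge plus Salmonella replicates 2, 3 or 4 (adjusted p 0.0509 to 0.115), and without Salmonella replicate 4 the difference was -0.74. CXCL11 stood at 5.68, 4.82, 4.82 and 5.19, and its groups overlapped. Its difference of -0.38 ± 0.20 SE was not called (adjusted p = 0.18, 95% interval from -0.80 to 0.05), but without sponge plus Salmonella replicate 1 it was -0.56 and called (adjusted p = 0.032).

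Against control libraries, CXCL10 and CXCL11 were still higher in the sponge plus Salmonella group, while CXCL9 and CCL8 were not called. Of all genes 40.9% were called in this comparison, 17.9% higher and 23.0% lower, and 39.7% had groups without overlap. Median centring moved all differences down by 0.12 and gave 1062 genes higher and 2569 lower, against 1336 and 1721 without it. CXCL10 was higher by 2.86 ± 0.95 SE (adjusted p = 0.027, or 2.73 after centring), with groups that overlapped. Without sponge plus Salmonella replicate 1 its difference was 1.75 and no longer called (adjusted p = 0.071), and the call also ended without control replicates 2 or 3 or sponge plus Salmonella replicate 2 (adjusted p 0.0505 to 0.0753).

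CXCL11 was higher than in control libraries by 0.60 ± 0.20 SE (adjusted p = 0.028), and its groups did not overlap. After median centring the difference was 0.47 and not called (adjusted p = 0.060), and the call ended without control replicates 1, 2 or 4 or sponge plus Salmonella replicates 1 or 4 (adjusted p 0.0557 to 0.0759). CXCL9 differed by 0.84 ± 0.39 SE with no overlap between the groups but was not called (adjusted p = 0.096), and by 0.48 without sponge plus Salmonella replicate 1. Its control values lay below the background, and with such values raised to it the difference was 0.45 (adjusted p = 0.46). CXCL9 was called without Salmonella replicate 4 (adjusted p = 0.026). The difference of CCL8 was -0.07 ± 0.38 SE (adjusted p = 0.89, 95% interval from -0.89 to 0.74), so a difference of up to about that size in either direction could have gone uncalled. On the scale from the control mean to the Salmonella mean, the sponge plus Salmonella mean stood at 39.4% of the rise for CXCL10, 41.9% for CXCL9, 61.3% for CXCL11 and -4.08% for CCL8. The shares of CXCL9 and CXCL11 are uncertain, because 3 of the 4 sponge plus Salmonella values of each lay below the silent genes' 95th percentile.

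**Figure D2:**
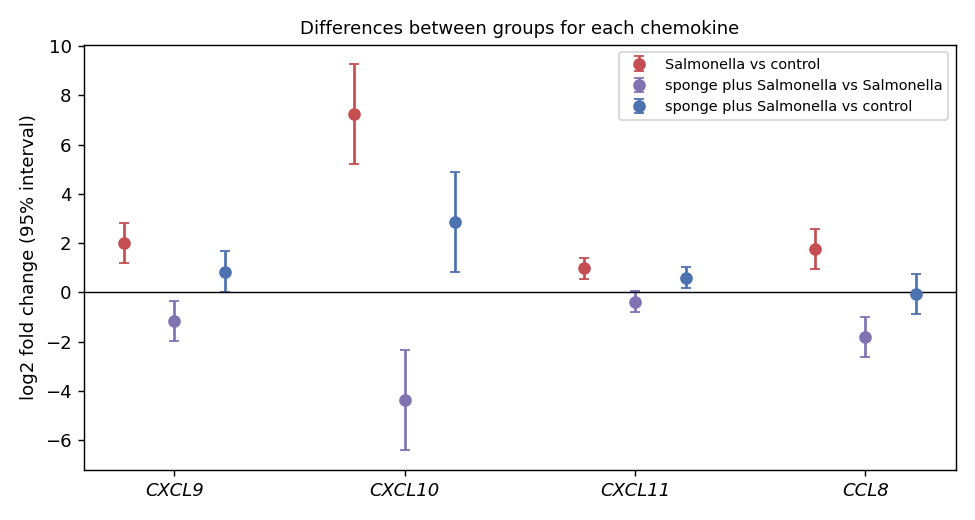
Log2 fold changes of each chemokine gene in the 3 comparisons between groups (points) with 95% intervals from limma (bars), n = 4 libraries per group. CXCL10 has the largest differences and the widest intervals, and the interval of CCL8 against control runs from -0.89 to 0.74.

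Whether the genes moved by different amounts was tested on the difference between each pair of genes within a library, for 6 pairs in each of the 3 comparisons. In the Salmonella and control groups, the difference CXCL9 minus CXCL10 changed by -5.24 log2 units, CXCL10 minus CXCL11 by 6.27, CXCL10 minus CCL8 by 5.48 and CXCL9 minus CXCL11 by 1.03, each with no overlap between the groups. CXCL9 and CCL8 differed by 0.24 in their rise (exact permutation p = 0.43). Between sponge plus Salmonella and Salmonella libraries, CXCL11 minus CCL8 changed by 1.46, CXCL9 minus CXCL10 by 3.22 and CXCL10 minus CXCL11 by -4.01, again with no overlap. These 7 differences had the smallest p that 4 libraries against 4 can give in an exact two-sided permutation test (0.0286), and 0.0735 after Benjamini-Hochberg adjustment over the 18 tests. None of the 18 thus passed the adjusted threshold.

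Within groups, the 4 genes shared their highest library after either treatment but not in the controls. Sponge plus Salmonella replicate 1 was the highest of its group for each of the 4 genes, and Salmonella replicate 4 likewise. Over the 1175 genes called higher with Salmonella, sponge plus Salmonella replicate 1 was the highest of its group for 38.6%, and Salmonella replicate 4 for 27.0%. The highest control library was replicate 4 for CXCL9, 1 for CXCL10, 3 for CXCL11 and 2 for CCL8. Replicate 3 was the lowest control library for CXCL10 and CCL8, while it was the highest for CXCL11.

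The receptor genes described were CCR1, CCR2 and CCR8, 3 of 9 listed, and CXCR3 was not analysed here. CCR1 and CCR2, through which CCL8 can act on monocytes, both rose with Salmonella and fell with the sponge. CCR2 ran from 4.48 to 5.77 in control, from 7.65 to 8.97 in Salmonella and from 6.22 to 7.56 in sponge plus Salmonella libraries, so the 3 groups did not overlap. It rose by 3.10 ± 0.35 SE (adjusted p = 1.6e-05), and with the sponge it was lower than with Salmonella by -1.21 ± 0.35 SE (adjusted p = 0.021). That second call ended without Salmonella replicates 3 or 4 or sponge plus Salmonella replicate 4 (adjusted p 0.05003 to 0.0699). CCR1 rose by 1.76 ± 0.23 SE (adjusted p = 4.6e-05) and with the sponge was lower by -1.38 ± 0.23 SE (adjusted p = 8.5e-04).

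CCR8, chosen after its values were seen, was called with the sponge against Salmonella (0.42 ± 0.13 SE, adjusted p = 0.024), though not without Salmonella replicates 2 or 4 or sponge plus Salmonella replicates 1 or 2 (adjusted p 0.0512 to 0.0685). Its control and Salmonella means (4.39 and 4.56) lay below the background, so the size is uncertain. In counts, 2 of the 3 receptors were higher and 0 lower with Salmonella, with a median log2 fold change of 1.76 against -0.02 over all genes. With the sponge 1 was higher and 2 were lower than with Salmonella alone, with a median of -1.21 against -0.04. Among all genes 33.6% were called with Salmonella and 25.0% for the sponge against Salmonella.

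Of 8 listed enzymes that trim or modify these chemokines 5 were measured. DPP4, a membrane peptidase that clips the amino terminus of CXCR3 ligands, was called with the sponge. It ran from 3.81 to 4.41 in control libraries, stood at 6.14, 4.49, 4.37 and 3.71 in Salmonella replicates 1 to 4, and ran from 6.35 to 6.71 in sponge plus Salmonella libraries. The sponge plus Salmonella group lay above each library of the other groups. DPP4 was higher there than with Salmonella by 1.81 ± 0.37 SE (adjusted p = 0.0034) and than in control by 2.39 ± 0.37 SE (adjusted p = 2.7e-04). Both sizes are uncertain, because the control libraries and Salmonella replicates 2 to 4 lay below the background. The difference of DPP4 between Salmonella and control was not called (0.58 ± 0.37 SE, adjusted p = 0.25). PADI2, an enzyme that converts arginine to citrulline and was chosen after its values were seen, rose with Salmonella by 1.53 ± 0.36 SE (adjusted p = 0.0043), the only 1 of the 5 enzymes called there. With the sponge 1 of the 5 enzymes was called higher than with Salmonella and 2 lower, against 11.9% and 13.2% of all genes. The share of all genes called with Salmonella was 33.6%.

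Among 7 measured cytokines that can induce the chemokines, of 11 listed, IFNG itself was not called in any of the 3 comparisons. IFNG, which encodes interferon gamma, had means of 5.70 ± 0.36 in control, 5.12 ± 0.78 in Salmonella and 5.54 ± 0.63 in sponge plus Salmonella libraries (SD, n = 4). Its difference between Salmonella and control was -0.58 ± 0.38 SE (adjusted p = 0.26), and without Salmonella replicate 2 it was -0.96 and called lower (adjusted p = 0.041). IL27, chosen after its values were seen, was the 1 cytokine of the 7 called with Salmonella (1.32 ± 0.24 SE, adjusted p = 8.6e-04). It was lower again with the sponge (-1.11 ± 0.24 SE, adjusted p = 0.0050), and its control mean of 4.47 lay below the background. The share of all genes called with Salmonella was 33.6%. For the sponge against Salmonella 2 of the 7 cytokines were higher and 1 lower, against 11.9% and 13.2% of all genes. Their median was 0.27 against -0.04 over all genes. The 2 higher, also chosen after their values were seen, were IL18 (0.73 ± 0.22 SE, adjusted p = 0.023) and IL12B (0.27 ± 0.08 SE, adjusted p = 0.021). IL18, an inducer of interferon gamma, was not called without Salmonella replicates 3 or 4 or sponge plus Salmonella replicates 3 or 4 (adjusted p 0.0551 to 0.0744). IL12B, a subunit of interleukin-12, had group means below the background, was 0.05 and not called with such values raised to it (adjusted p = 0.42), and was not called without Salmonella replicate 3 (adjusted p = 0.0501). IFNB1, the interferon beta gene, also chosen afterwards, lay below the background in each group mean, at 4.42, 4.35 and 4.41.

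Of 15 listed genes of interferon receptors, JAK-STAT signalling and IRF factors 6 were measured. With Salmonella 3 were higher and 0 lower, against 15.7% and 17.9% of all genes. Their median log2 fold change was 0.44 against -0.02 over all genes. IRF1, a transcription factor induced by interferon, was at most 11.58 in control libraries (mean 11.38 ± 0.23, SD, n = 4) and stood between 13.38 and 13.88 in Salmonella libraries. In sponge plus Salmonella replicates 1 to 4 it stood at 12.83, 12.10, 11.80 and 11.88, between the other groups with no overlap, and replicate 1 was the highest as it was for the chemokines. IRF1 rose by 2.29 ± 0.21 SE with Salmonella (adjusted p = 2.8e-06) and was lower with the sponge by -1.53 ± 0.21 SE (adjusted p = 3.2e-04). IFNGR2, a chain of the interferon gamma receptor, rose by 1.03 ± 0.18 SE (adjusted p = 5.3e-04) and was lower with the sponge by -0.81 ± 0.18 SE (adjusted p = 0.0051), or by -0.47 after quantile normalization.

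IRF2, which can oppose IRF1 at shared sites, was called with Salmonella (1.18 ± 0.36 SE, adjusted p = 0.020) but not with values under the background raised to it (0.53, adjusted p = 0.34), and the difference was 0.72 without Salmonella replicate 1. JAK1, a kinase of the interferon receptors, was not called with Salmonella (-0.15 ± 0.16 SE, adjusted p = 0.49) and was higher with the sponge by 0.97 ± 0.16 SE (adjusted p = 9.8e-04). Of the 6 signalling genes 1 was higher and 2 were lower with the sponge than with Salmonella alone, with a median of -0.30 against -0.04. Among all genes the shares called there were 11.9% higher and 13.2% lower.

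Of 9 listed genes that restrain interferon signalling 4 were measured, and 3 rose with Salmonella and were lower with the sponge. Among all genes 15.7% were called higher with Salmonella, and 13.2% were called lower with the sponge than with Salmonella. SOCS1, a suppressor of JAK kinases, stood at 4.30 ± 0.10 in control, 9.17 ± 0.85 in Salmonella and 6.77 ± 0.86 in sponge plus Salmonella libraries (SD, n = 4). SOCS3 rose by 2.25 ± 0.28 SE (adjusted p = 3.8e-05), and USP18, a protease that dampens type I interferon signalling, by 1.63 ± 0.23 SE (adjusted p = 1.1e-04). With the sponge SOCS1 was lower by -2.40 ± 0.42 SE (adjusted p = 0.0013), SOCS3 by -1.40 ± 0.28 SE (adjusted p = 0.0033) and USP18 by -1.17 ± 0.23 SE (adjusted p = 0.0027). The control means of the 3 genes lay below the background, so the sizes of their rises are uncertain. The median of the 4 genes was 1.94 with Salmonella against -0.02 over all genes.

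Of 20 genes of endotoxin sensing through TLR4 and of NF-kB 8 were measured, and 3 were higher and 1 lower with Salmonella. The shares of all genes called there were 15.7% higher and 17.9% lower. TLR4, the endotoxin receptor, rose by 2.27 ± 0.23 SE (adjusted p = 6.3e-06) and was lower with the sponge by -1.48 ± 0.23 SE (adjusted p = 6.1e-04). LY96, its partner MD-2, rose by 1.96 ± 0.25 SE (adjusted p = 4.5e-05) and was lower with the sponge by -1.45 ± 0.25 SE (adjusted p = 0.0012). TICAM2, an adaptor on the route from TLR4 to type I interferon, rose by 1.67 ± 0.30 SE (adjusted p = 7.5e-04) and was lower with the sponge by -2.05 ± 0.30 SE (adjusted p = 4.8e-04). NFKBIA, the NF-kB inhibitor, fell with Salmonella by 0.89 on the log2 scale (adjusted p = 2.7e-04), and the sponge against Salmonella was not called (-0.33 ± 0.14 SE, adjusted p = 0.098) except without Salmonella replicate 1 (-0.42, adjusted p = 0.042). The median of the 8 genes was 0.31 with Salmonella and -0.34 for the sponge against Salmonella, against -0.02 and -0.04 over all genes.

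Of 8 genes for decay or binding of chemokine transcripts 6 were measured. With Salmonella 0 were higher and 2 lower, with a median of -0.46, and 2 of 6 is near the 33.6% called over all genes. ZFP36L2, a protein that speeds the decay of AU-rich transcripts, fell by 0.89 on the log2 scale with Salmonella (adjusted p = 6.9e-04). The other was HNRNPD (-0.42 ± 0.15 SE, adjusted p = 0.046), named here after its values were seen. The call of HNRNPD ended without control replicates 1, 2 or 4, Salmonella replicates 1, 2 or 3, or sponge plus Salmonella replicates 3 or 4 (adjusted p 0.0523 to 0.140). ELAVL1, which binds and stabilises such transcripts, was not called with Salmonella (-0.50 ± 0.23 SE, adjusted p = 0.11) and was higher with the sponge than with Salmonella by 1.49 ± 0.23 SE (adjusted p = 6.1e-04). The Salmonella libraries of ELAVL1 (3.69 to 4.42) lay below the background, so these sizes are uncertain. For the sponge against Salmonella 2 of the 6 genes were higher and 2 lower, against 11.9% and 13.2% of all genes. Their median was -0.08 against -0.04 over all genes. The 2 lower, chosen after their values were seen, were KHSRP (-0.69 ± 0.20 SE, adjusted p = 0.020) and ZC3H12A (-0.84 ± 0.26 SE, adjusted p = 0.031), both of which promote transcript decay. KHSRP was not called without Salmonella replicates 2 or 3 (adjusted p 0.0625 and 0.0659), nor ZC3H12A without Salmonella replicates 2 or 4 or sponge plus Salmonella replicates 1, 2 or 3 (adjusted p 0.0587 to 0.0968). The second gene called higher was ZFP36L2 (0.46 ± 0.16 SE, adjusted p = 0.047), whose call ended without control replicates 1, 2 or 4, Salmonella replicates 1, 2 or 3, or sponge plus Salmonella replicates 3 or 4 (adjusted p 0.0517 to 0.115).

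Of 42 other chemokine symbols listed 16 were measured. With Salmonella 2 were higher, 2 lower and 12 not called, with a median log2 fold change of 0.21 against -0.02 over all genes. These 4 calls among 16 genes are near the 33.6% called over all genes. The genes called were chosen after their values were seen. CXCL2, a neutrophil chemoattractant, rose by 0.51 ± 0.10 SE (adjusted p = 0.0015), with a control mean of 4.44 below the background, and by 0.33 with such values raised to it. PPBP, a platelet chemokine, rose by 1.13 ± 0.27 SE (adjusted p = 0.0045). CCL21, which guides cells to lymph nodes, was lower by -1.19 ± 0.26 SE (adjusted p = 0.0029), and CXCL6, another neutrophil chemoattractant, by -1.18 ± 0.23 SE (adjusted p = 0.0014). The Salmonella means of CCL21 (4.54) and CXCL6 (4.55) lay below the background, so the sizes of these falls are uncertain. With the sponge 0 of the 16 were higher and 2 lower than with Salmonella alone, with a median of -0.06. In that comparison 25.0% of all genes were called. Against control, 2 were higher and 2 lower with the sponge, where 40.9% of all genes were called.

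Other chemokine receptors moved in both directions, with 8 of 13 measured. With Salmonella 2 were higher and 4 lower, against 15.7% and 17.9% of all genes, with a median of -0.74. CCRL2, an atypical receptor that binds chemerin, rose from 4.58 ± 0.15 to 8.36 ± 0.66 (SD, n = 4) and stood at 6.05 ± 1.16 with the sponge. Its rise of 3.78 ± 0.46 SE (adjusted p = 2.8e-05) and its lower level with the sponge (-2.32 ± 0.46 SE, adjusted p = 0.0029) ran in the same directions as those of CXCL10. The control mean of CCRL2 lay below the background, so the size of its rise is uncertain. CX3CR1, the fractalkine receptor of monocytes and NK cells, rose by 1.57 ± 0.21 SE (adjusted p = 7.3e-05) and was lower with the sponge by -1.03 ± 0.21 SE (adjusted p = 0.0038). CXCR5, the receptor that takes B cells to follicles, moved the other way, lower with Salmonella by -2.47 ± 0.24 SE (adjusted p = 4.6e-06) and higher with the sponge by 1.76 ± 0.24 SE (adjusted p = 3.2e-04). CCR7, the lymph node homing receptor, was lower with Salmonella by -1.80 ± 0.30 SE (adjusted p = 4.4e-04). With the sponge CCR7 was higher than with Salmonella by 0.96 ± 0.30 SE (adjusted p = 0.033), though not without Salmonella replicates 1, 2 or 4 or sponge plus Salmonella replicates 3 or 4 (adjusted p 0.0633 to 0.102).

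**Figure D3:**
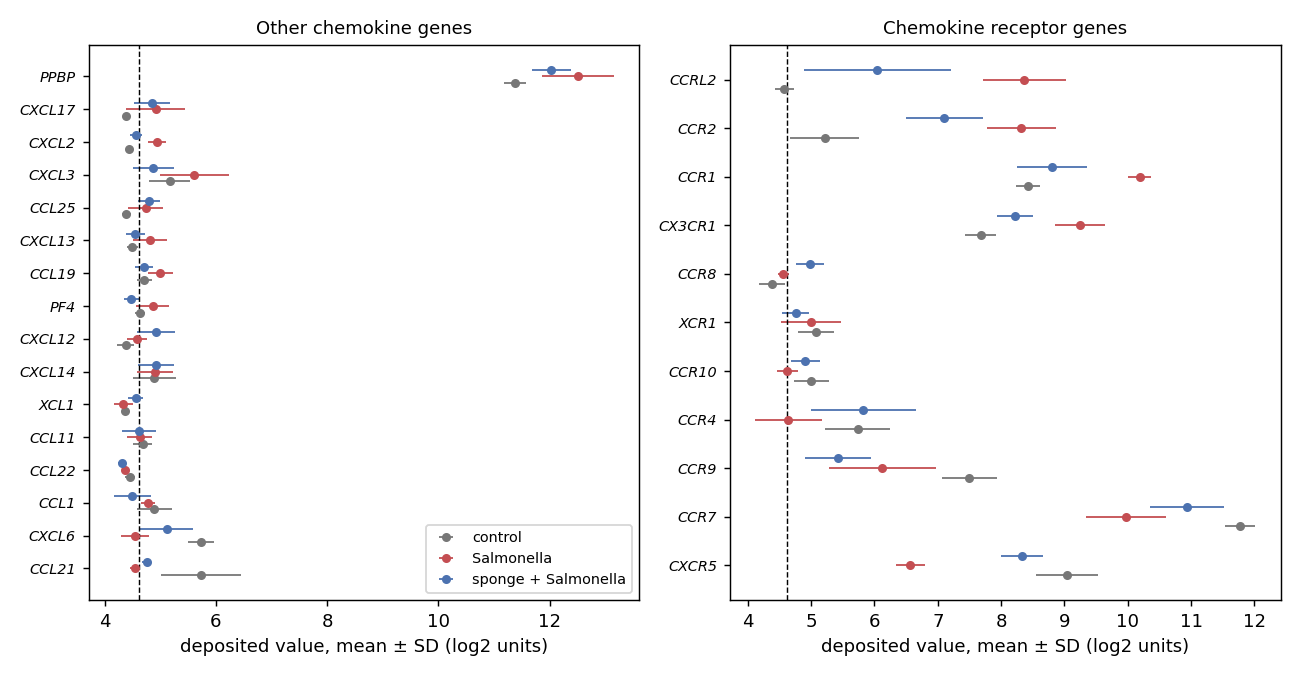
Group means ± SD (n = 4 libraries) in log2 units of the 16 other chemokine genes (left) and 11 chemokine receptor genes (right), ordered by the log2 fold change of Salmonella against control. The dashed line is the mean of the silent genes at 4.62. Most other chemokines lie near this line in each group, and CCRL2, CCR2, CCR1 and CX3CR1 are highest in Salmonella libraries.

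Genes near the 4 chemokines on the chromosome were compared where they were measured. Within 200 kb of the start of a CXCR3 ligand gene, NAAA and SCARB2 were measured besides the ligands themselves. NAAA, which encodes a lysosomal amidase, rose by 2.09 ± 0.30 SE with Salmonella (adjusted p = 1.3e-04), and its level with the sponge (7.56) differed from that with Salmonella (7.40) by 0.17 ± 0.30 SE (adjusted p = 0.71). SCARB2, which encodes a lysosomal membrane protein, rose by 1.41 ± 0.29 SE (adjusted p = 0.0017) and was lower with the sponge by -1.24 ± 0.29 SE (adjusted p = 0.0069). Next to CCL8, the chemokine genes CCL1 and CCL11 were measured. Neither was called with Salmonella (CCL1 -0.11 ± 0.17 SE, adjusted p = 0.66, and CCL11 -0.05 ± 0.15 SE, adjusted p = 0.82) and their group means lay between 4.50 and 4.89, close to the background.

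For each chemokine the 5 genes with the most similar course were found by the root-mean-square difference over the 12 libraries, after each gene's own mean was subtracted. All of these values share their libraries, and the measure is a description with no test. For CXCL10 they were SLAMF8 (1.07 log2 units), IFITM3 (1.07), BATF2 (1.14), IFIT3 (1.14) and SLC6A12 (1.18), against 3.33 for a gene that stays flat. IFITM3 stood at 15.01, the highest value in the table, in all 4 Salmonella libraries, so its distance from CXCL10 rests on values at that limit. SLAMF8 encodes a receptor of the SLAM family, IFITM3 and IFIT3 antiviral proteins, BATF2 a transcription factor and SLC6A12 a betaine transporter. For CCL8 they were DENND1A (0.37), BMP1 (0.43), AGTRAP (0.44), VAMP3 (0.45) and SUCNR1 (0.45), against 1.0 for a flat gene.

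For CXCL9 the 5 were the RNA helicase gene DDX60 (0.37), the chromatin gene BAZ1A (0.39), LIPN (0.40), the kinase gene RIPK2 (0.42) and the RNA sensor gene TLR7 (0.43), against 1.0 for a flat gene. For CXCL11 they were ARHGAP23 (0.14), HLF (0.17), SH2B3 (0.19), the B cell and myeloid kinase gene BTK (0.20) and DECR1 (0.22), against 0.47. None of the other 3 chemokines was among the 5 of any chemokine. The nearest pair were CXCL9 and CCL8, at 0.54, where CXCL9 took place 32 among the genes nearest to CCL8. For CXCL9 0 of the 5 genes stayed without Salmonella replicate 4 or with values under the background raised to it, and for CCL8 1 stayed without Salmonella replicate 4.

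**Figure D4:**
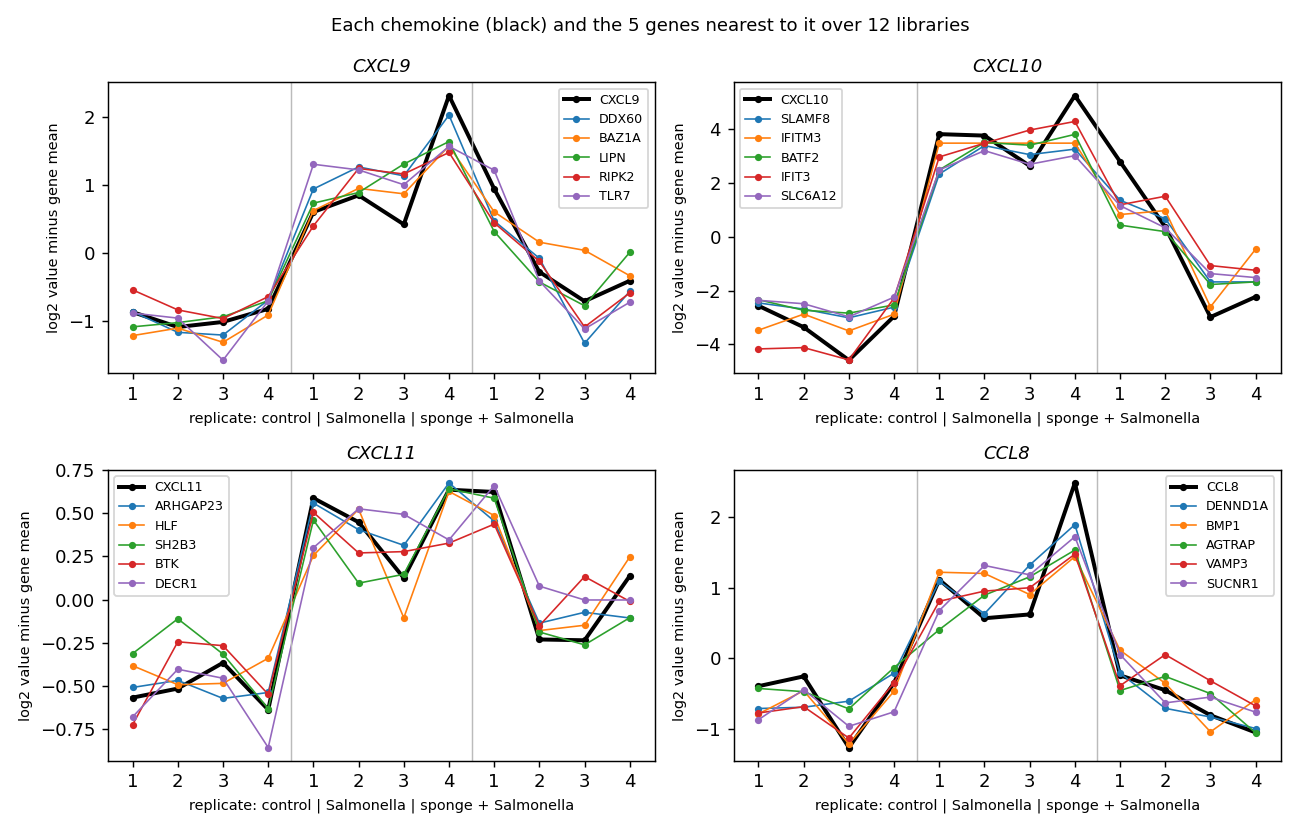
Log2 values minus the gene's mean over the 12 libraries, for each chemokine (black) and the 5 genes nearest to it by root-mean-square difference (colours), with libraries on the x axis in the order control, Salmonella, sponge plus Salmonella replicates 1 to 4. On this scale CXCL10 falls from 2.80 in sponge plus Salmonella replicate 1 to -2.98 in replicate 3, a wider spread than in the 5 genes beside it.

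Marker genes of the cells that make or answer these chemokines moved between the groups as well. In such bulk samples, fewer cells of a type and less RNA per cell cannot be told apart. Over all genes 15.7% were higher and 17.9% lower with Salmonella, and 11.9% higher and 13.2% lower with the sponge against Salmonella. Of 5 measured monocyte markers, of 9 listed, 4 were higher and 0 lower with Salmonella, and 0 of the 5 lay below the background in any group. Their mean level per library ran from 7.52 to 8.41 in control, from 9.33 to 9.88 in Salmonella and from 8.86 to 9.32 in sponge plus Salmonella libraries. With the sponge 0 of these 5 were higher and 2 lower than with Salmonella alone. Of 6 measured markers of CD8, Th1 and NK cells, the cells that carry CXCR3, 0 were higher and 4 lower with Salmonella. With the sponge 1 of these 6 was higher than with Salmonella alone, 0 were lower and 5 were not called. Their mean level ran from 8.64 to 9.01 in control, from 7.37 to 8.23 in Salmonella and from 8.04 to 8.29 in sponge plus Salmonella libraries. Of 7 T cell markers 0 were higher and 6 lower with Salmonella, and 7 were higher with the sponge than with Salmonella alone. Both measured B cell markers (of 5 listed) were lower with Salmonella and higher again with the sponge.

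The 4 measured platelet markers, of 5 listed, were all higher with Salmonella than in control libraries, with mean levels per library from 8.63 to 8.98 in control and from 9.40 to 10.23 in Salmonella libraries. Of the 5 neutrophil markers 2 were higher and 2 lower with Salmonella, and 0 of 5 were called for the sponge against Salmonella. Among all genes 33.6% were called with Salmonella and 25.0% for the sponge against Salmonella. Both erythroid markers were lower with the sponge than with Salmonella, and 1 of the 2 was higher with Salmonella than in control. Sponge plus Salmonella replicate 1 was the lowest of its group for both. AHSP stood at 8.54 there against 10.58 to 11.56 in the other replicates, and ALAS2 at 6.33 against 7.71 to 8.83. The sponge plus Salmonella and Salmonella groups of ALAS2 overlapped. With Salmonella 0 of 5 dendritic cell markers were higher and 2 lower. Of 6 endothelial and fibroblast markers 1 was higher and 1 lower, and of 2 epithelial markers 0 were higher and 1 lower. The endothelial and fibroblast count is near the share called over all genes. The part of these marker shifts in the chemokine results was not tested.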

How the data were processed

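The values deposited by the authors are on a log2 scale, with 1 value per gene symbol and library. The base was not stated and was taken as 2, and no source used here states how reads were counted, normalized or filtered. The submitters' processing notes name the aligner Bowtie, R version 3.4.2 and the pig build Sscrofa11.1. Per the labels' protocols the RNA was taken with a PAXgene kit and made into Illumina TruSeq libraries.

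All 7480 genes and 12 libraries entered 1 model of 3 group means in limma 3.58.1 (R 4.3.3), with a mean-dependent prior for the variances. P-values were adjusted over the 7480 genes after Benjamini and Hochberg, and a gene was called where the adjusted value was under 0.05. The fit was checked on simulated data with independent normal noise and the same spread in each group. That check did not cover the ties or the unequal spreads seen in these libraries. Pairs of chemokines were compared with exact permutation tests. Depth is unknown, so no counting error is given.

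The 4 chemokines, the gene lists and the tests were chosen with earlier results of these data known. Named beside them were the 20 called list genes with the smallest p, CXCR3, CCR2, DPP4, IRF1 and IFNG where measured, measured genes within 200 kb, and the 5 nearest genes of each chemokine. Some listed genes are not reported here. Marker lists were also summarised for B cells, dendritic cells, neutrophils, platelets, erythroid, endothelial, fibroblast and epithelial cells. Alternatives were fits of 8 libraries, a replicate block, median centring, quantile normalization, a filter on a mean under 5, no variance trend, values under the background raised to it, and leaving out each library. Tests for counts and pseudocounts for linear values were planned in case the table held such values and were not needed.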

Additional observations from a re-analysis of the deposited data

Results flagged for a closer look

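For the 4 chemokines and the other genes named by rule, 87 groups of 4 libraries were examined for a library far from the other 3, and 7 held one. Chance marks about 1 group in 20. CCL8 was low in control replicate 3, at 5.05, where the other control libraries lay between 5.92 and 6.05, and without that library its rise with Salmonella was still called. Among the other genes, a single control library was high for CXCR5 (9.77), LY96 (10.75) and IFNG (6.24), and a single Salmonella library was high for CCR7 (10.92). SCARB2, the neighbour of the CXCR3 ligand genes, had a low control library (8.89) and a high sponge plus Salmonella library (10.76).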

How the results depend on the processing

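The rise of the 4 chemokines with Salmonella was called under every alternative that was run, and so were the falls of CCL8 and, with limma, of CXCL10 with the sponge. No chemokine value changed sign past the threshold. For the sponge against Salmonella, CXCL9 was -1.16 and no longer called in a fit of the 8 libraries compared (adjusted p = 0.080), without the variance trend (0.062) or by an exact permutation test (p = 0.11), and -1.11 with values under the background raised to it (0.10). Leaving out 1 library gave -1.51 to -0.74 for CXCL9 and -0.56 to -0.27 for CXCL11, and by the exact permutation test CXCL10 (-4.39) had p = 0.057. For the sponge against control, CXCL9 (0.84) was called in the fit of 8 libraries (0.029) and had p = 0.029 by the exact permutation test. With the background raised, CXCL9 was 0.45 and not called (0.46). CXCL10 was not called without the trend (2.86, 0.052), with the background raised (2.66, 0.097) or by the exact permutation test (p = 0.086), nor was CXCL11 after median centring (0.47, 0.060) or with the background raised (0.49, 0.066). Leaving out 1 library gave 0.48 to 1.03 for CXCL9, 1.75 to 3.68 for CXCL10 and 0.41 to 0.70 for CXCL11. Chemokines called there numbered 2, but 1 after median centring, 1 without the trend, 0 with the background raised and 0 to 3 with 1 library left out. The causes were not tested. Correlations of the deviations ran from -0.36 to 0.38 between same-numbered replicates and from -0.42 to 0.50 between the others. These ranges are alike, so this check cannot tell whether the numbers pair the libraries. With a replicate block 2371, 1706 and 2907 genes were called, against 2513, 1873 and 3057, and 4, 3 and 2 chemokines, as without it. Of 2637 alternative values of the other named genes 204 moved across the threshold and 0 changed sign past it, and the 5 nearest genes changed by 2 or more in 22 of 60 cases. Pseudocounts and tests for counts were not run, because the values are on a log scale. The permutation test and the repeats for the nearest genes were chosen after seeing the data.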
